A study of Mus musculus with 72 samples.

Results

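The 35 genes described here belong to the pathway that takes up, activates and oxidises fatty acids, mainly in the mitochondrion. They were listed by name for their place in the pathway, with earlier results of these data known, and all 35 were among the 53715 genes counted in each library. By role they fall into 3 uptake genes, 5 acyl-CoA synthetases, 5 genes of the carnitine shuttle, 13 enzymes of beta-oxidation, 3 genes of electron transfer and 6 genes that control fuel use. They were measured by bulk RNA-seq in 18 male mice of 18 weeks, 6 Gnb5-/- (knockout), 6 Gnb5+/- (heterozygous) and 6 Gnb5+/+ (wild-type). Atria and ventricles were taken from every mouse, and cerebellum, hippocampus and cerebral cortex from the knockout and wild-type mice, which gave 72 libraries in 12 groups of 6. Gnb5 encodes a G protein beta subunit that works with regulators of G protein signalling in neurons and in the heart. The mutant allele lacks exon 3 in the germline of C57BL/6J mice, so the gene was altered in every cell from conception. The line was restored from frozen sperm, heterozygous breeding pairs received enriched pellets, and litters that held knockout pups were given softened food around weaning. Both whole atria, with their nodal tissue, and both whole ventricles were used. In such bulk tissue, fewer cells of a type and less RNA per cell cannot be told apart.

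Fatty acids enter a heart cell with the help of the membrane receptor Cd36, are carried by the binding protein Fabp3, and are joined to coenzyme A by acyl-CoA synthetases. The carnitine shuttle (a Cpt1 enzyme outside, the carrier Slc25a20 in the inner membrane, Cpt2 inside) moves them into the mitochondrion, where beta-oxidation cuts the chain and passes electrons through Etfa, Etfb and Etfdh to the respiratory chain. The adult heart draws most of its energy from this route, and neurons burn little fatty acid. Ppara, a nuclear receptor that fatty acids activate, and its coactivator Ppargc1a raise the transcription of many of these genes, and fasting raises Pdk4, Ucp3, Acot2 and Cpt1a through the same receptor.

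Promoter sequence from RefSeq (GRCm38.p6) is shown for 5 members, each as the 250 bases before the annotated start, 5′ to 3′ on the gene's strand. Of the 35 members, 32 had a promoter window. The letters AGGTCA, the core that Ppara and other nuclear receptors bind, were found on either strand in these 250 bases of 8 of the 32 members (25%), which were Acadm, Acadvl, Acsl6, Cd36, Cpt1a, Cpt1c, Echs1 and Ucp3, beside 15.8% of all 27025 genes with a window. The longer TCAAGGTCA, which contains AGGTCA and is the core bound by estrogen-related receptors, was found in 1 member (Acsl6) and in 0.422% of all genes. CACGTG, the E-box bound by clock and Myc family factors, was found in 1 member (Slc27a1) and in 6.86% of all genes. A match is a run of letters and not a measured site. The windows of Cpt1a and Cpt1c are printed because these isoforms differed in opposite directions between heart and brain, and those of Acadm and Cd36 as members abundant in heart that hold AGGTCA. All 4 were picked among the 8 with a match, and Fabp3 and Acadl, as abundant in heart, had none. Capitals mark AGGTCA or its reverse complement TGACCT. They lie at chr19:3323051-3323300 (Cpt1a, plus strand), chr7:44974852-44975101 (Cpt1c, minus strand), chr3:153944644-153944893 (Acadm, minus strand) and chr5:17835897-17836146 (Cd36, minus strand).
Cpt1a: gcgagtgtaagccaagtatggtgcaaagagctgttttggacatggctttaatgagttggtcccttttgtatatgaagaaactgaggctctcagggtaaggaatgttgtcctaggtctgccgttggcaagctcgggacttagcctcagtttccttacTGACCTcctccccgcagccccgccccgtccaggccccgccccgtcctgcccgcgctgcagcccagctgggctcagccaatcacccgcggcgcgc
Cpt1c: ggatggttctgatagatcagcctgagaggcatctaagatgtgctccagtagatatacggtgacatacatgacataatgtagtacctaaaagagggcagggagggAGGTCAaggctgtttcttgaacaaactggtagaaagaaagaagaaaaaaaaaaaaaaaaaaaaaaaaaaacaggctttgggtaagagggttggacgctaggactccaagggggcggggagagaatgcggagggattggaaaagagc
Acadm: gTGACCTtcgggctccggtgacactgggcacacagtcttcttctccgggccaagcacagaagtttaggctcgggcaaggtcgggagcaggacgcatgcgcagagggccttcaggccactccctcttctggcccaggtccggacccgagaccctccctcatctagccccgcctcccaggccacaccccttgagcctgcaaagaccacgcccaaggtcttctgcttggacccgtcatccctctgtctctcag
Cd36: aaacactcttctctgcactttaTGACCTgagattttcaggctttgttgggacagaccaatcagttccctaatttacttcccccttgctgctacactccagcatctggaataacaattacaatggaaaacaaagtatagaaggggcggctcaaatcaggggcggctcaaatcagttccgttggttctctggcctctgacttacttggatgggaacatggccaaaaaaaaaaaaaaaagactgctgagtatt
Hadha and Hadhb, which encode the subunits of the trifunctional protein, start head to head on chromosome 5, with 272 bases between their RefSeq starts. The window of Hadhb (chr5:30155003-30155252, plus strand) is printed with capitals for the 228 bases that also lie in the 250 bases before Hadha.
Hadhb: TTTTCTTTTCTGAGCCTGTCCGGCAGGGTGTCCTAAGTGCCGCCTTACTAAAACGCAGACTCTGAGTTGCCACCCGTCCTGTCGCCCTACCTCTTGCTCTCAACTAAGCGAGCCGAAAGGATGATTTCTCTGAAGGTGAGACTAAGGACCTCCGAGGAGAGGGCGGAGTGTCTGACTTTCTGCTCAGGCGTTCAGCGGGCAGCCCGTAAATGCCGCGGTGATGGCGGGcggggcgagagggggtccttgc

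Between 29204390 and 48807435 reads were counted on genes per library, and the members took 1.23% to 1.84% of them in ventricles, 0.600% to 0.861% in atria and 0.153% to 0.191% in the brain. All values below are CPM, the counts scaled to a fixed library total after TMM normalisation, in which a few very abundant genes weigh less. Gnb5 itself was at 27.0 to 37.0 CPM in wild-type, 13.4 to 21.3 in heterozygous and 0.858 to 2.93 in knockout hearts, and at 71.4 to 113 in wild-type and 8.87 to 16.1 in knockout brains, as labelled. The marker genes matched the labelled tissues: the 6 atrial muscle markers summed to 25353 to 35379 CPM in wild-type atria and 145 to 343 in ventricles, and the 6 neuron markers to at least 2811 in each wild-type brain library. A few libraries stood apart. The cerebellum and hippocampus of wild-type mouse 8 held the heart gene Myh6 at 30.9 and 105 CPM, against at most 0.760 in the other 34 brain libraries. Short genes were raised against long genes in the knockout cerebellum of mouse 12 (by 1.46 on the log2 scale), the knockout cortex of mouse 14 (1.48) and mouse 3 (0.717) and the heterozygous ventricles of mouse 4 (0.976), against -0.20 to 0.13 in the other 68 libraries. Most results that rest on these libraries are given with and without them. The knockout cortex of mouse 3 was kept in all tissue contrasts, and no genotype fit left out both cortex mouse 3 and cortex mouse 14.

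The members' sum was highest in ventricles and lowest in the brain. In wild-type mice it ranged over 20479.8 to 24849.6 CPM in ventricles, 7071 to 9544 in atria, 1115 to 1172 in cerebellum, 1232 to 1304 in hippocampus and 1197 to 1276 in cortex. Levels of different genes were compared per kilobase of the exon sequence on which reads could be counted. On that scale Fabp3 led the members in the heart, at 1035 ± 209.8 CPM per kb in atria and 3549 ± 506 in ventricles (SD, n = 6). The dehydrogenases Acadl and Acadm, which start the cycle on long and medium chains, came next, at 411 ± 60.1 and 307 ± 44.8 in atria and 865 ± 92.8 and 911 ± 88.5 in ventricles. The thiolase Acaa2 (259.7 ± 30.8 in atria, 592 ± 104 in ventricles) and Cd36 (235 ± 39.0 and 707 ± 82.4) followed. Their mean ± SD overlapped in both chambers, as did those of Acadl and Acadm. In atria those of Acadm also overlapped those of Acaa2 and Cd36, and in ventricles those of Acadl overlapped those of Cd36. In the brain the order was another: Acsl6 led in each region, at 97.6 ± 2.22 in cerebellum, 80.5 ± 3.34 in hippocampus and 88.6 ± 3.25 in cortex. Behind it came Slc27a1 (29.3 ± 1.797), Acaa1a (28.2 ± 6.27), Acadvl (25.9 ± 1.72) and Acsl3 (25.9 ± 1.85) in the cerebellum, with overlapping mean ± SD. In hippocampus and cortex Cpt1c (43.4 ± 1.33 and 34.4 ± 1.97) and Acsl3 (38.0 ± 2.56 and 36.02 ± 3.37) stood above Slc27a1 (32.2 ± 2.31 and 32.1 ± 2.97) and Acaa1a (27.6 ± 5.67 and 30.8 ± 6.96). The mean ± SD of Slc27a1 and Acaa1a overlapped in both regions, and in cortex those of Cpt1c and Acsl3 overlapped them too.

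Reads of 2 members were counted on a small share of their exons, so their levels are uncertain. Of the Cpt1b transcript, 94.8% is shared with the readthrough gene Gm44502 on the same strand, which leaves 151 of 2895 bases, and of Etfb 69.1% is shared with Gm45233, which leaves 276 of 893. HTSeq by default counts reads in a stretch shared by 2 genes for neither. Acadvl overlaps Dvl2 on the other strand over 45% of its transcript. Acaa1a has a near copy, Acaa1b, with 96.6% identity over 1428 aligned bases, and Acot2 (Acot1, 95.1%), Fabp3 and Hadhb (processed pseudogenes) have close copies too, with which reads can be lost or misassigned.

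Of the 3 uptake genes, Cd36 and Fabp3 separated heart from brain most widely of all members and Slc27a1 far less. Cd36, the fatty acid receptor, had lowest, median and highest levels of 628, 810.1 and 1006 CPM in wild-type atria and 2065, 2341 and 2832 in ventricles. In the brain they were 0.0781, 0.220 and 3.34 in cerebellum, 0.926, 1.38 and 11.8 in hippocampus and 0.752, 0.991 and 1.12 in cortex. The highest values in cerebellum and hippocampus came from mouse 8, whose 2 libraries held heart RNA. Fabp3, which carries fatty acids in muscle, was at 541, 917 and 1009.5 in atria and 2291, 2912 and 3569 in ventricles, and at 13.01, 13.5 and 14.3, 14.6, 15.5 and 25.7 and 22.2, 24.5 and 26.5 in cerebellum, hippocampus and cortex. Its atrial and ventricular mice did not overlap, and no brain library reached any heart library. Slc27a1, a fatty acid transport protein with synthetase activity, was at 108, 149 and 201 in atria, 106, 205 and 261 in ventricles, 78.3, 80.2 and 91.7 in cerebellum, 83.8, 87.3 and 99.2 in hippocampus and 78.6, 90.3 and 103 in cortex. Its lowest heart libraries lay close to the highest brain libraries, and the atria and ventricles overlapped.

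The acyl-CoA synthetases, which commit a fatty acid to a pathway by joining it to coenzyme A, divided between organs. Acsl1, the main form of muscle, was at 499, 640.2 and 718 CPM (lowest, median, highest) in wild-type atria and 1426, 1711 and 1868 in ventricles, and at 32.6, 38.4 and 40.8, 38.2, 42.6 and 47.1 and 37.1, 43.2 and 45.1 in cerebellum, hippocampus and cortex. Acsl3, a form of lipid droplets and endoplasmic reticulum, went the other way, at 6.47, 7.53 and 9.86 in atria and 7.79, 9.18 and 11.3 in ventricles but 89.6, 96.7 and 107, 127, 142 and 154 and 116, 135 and 149 in the brain regions. Neither gene had a heart library within its brain range. Acsl4, which prefers arachidonic acid, was at 25.2, 32.7 and 43.3 in atria, 17.4, 20.3 and 26.9 in ventricles, 42.0, 44.5 and 48.3 in cerebellum, 81.1, 88.1 and 104 in hippocampus and 65.9, 71.1 and 80.4 in cortex. Acsl5 was at 30.8, 32.8 and 38.8 in atria, 23.6, 25.8 and 29.97 in ventricles, 7.51, 7.87 and 8.55 in cerebellum, 49.6, 53.9 and 57.0 in hippocampus and 57.8, 59.5 and 64.5 in cortex. Acsl4 was lowest in ventricles and Acsl5 in cerebellum, and both were highest in the forebrain, where no mouse overlapped the heart. Acsl6, the neuronal form that favours docosahexaenoic acid, was at 35.6, 44.5 and 54.3 in atria, 18.5, 36.5 and 44.2 in ventricles, 246, 253 and 261 in cerebellum, 197, 211 and 219 in hippocampus and 217, 232 and 238 in cortex. Each brain library exceeded each heart library, while atria and ventricles overlapped.

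The carnitine palmitoyltransferases at the entry of the shuttle divided in the same manner. Cpt1a, the form found in most tissues, was at 54.1, 80.0 and 97.1 CPM in atria, 64.0, 72.2 and 90.1 in ventricles, 22.4, 24.8 and 28.1 in cerebellum, 24.3, 27.3 and 31.3 in hippocampus and 27.4, 29.1 and 32.8 in cortex of wild-type mice. Cpt1c, a brain form of the endoplasmic reticulum with little enzyme activity, was at 6.67, 8.94 and 9.54 in atria, 2.64, 4.81 and 6.10 in ventricles, 69.1, 71.5 and 75 in cerebellum, 117, 121 and 127 in hippocampus and 87.3, 97.1 and 103 in cortex. Heart and brain did not overlap for either gene, in opposite directions. Cpt1b, the muscle form, was at 1.91, 2.36 and 4.36 in atria, 2.36, 3.87 and 6.16 in ventricles, 0.611, 1.01 and 1.33 in cerebellum, 0.0736, 0.147 and 0.232 in hippocampus and 0.0945, 0.185 and 0.279 in cortex, from the 151 bases on which its reads could be counted. These values do not give the level of the whole transcript, and they cannot be set beside those of Cpt1a.

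**Figure D1:**
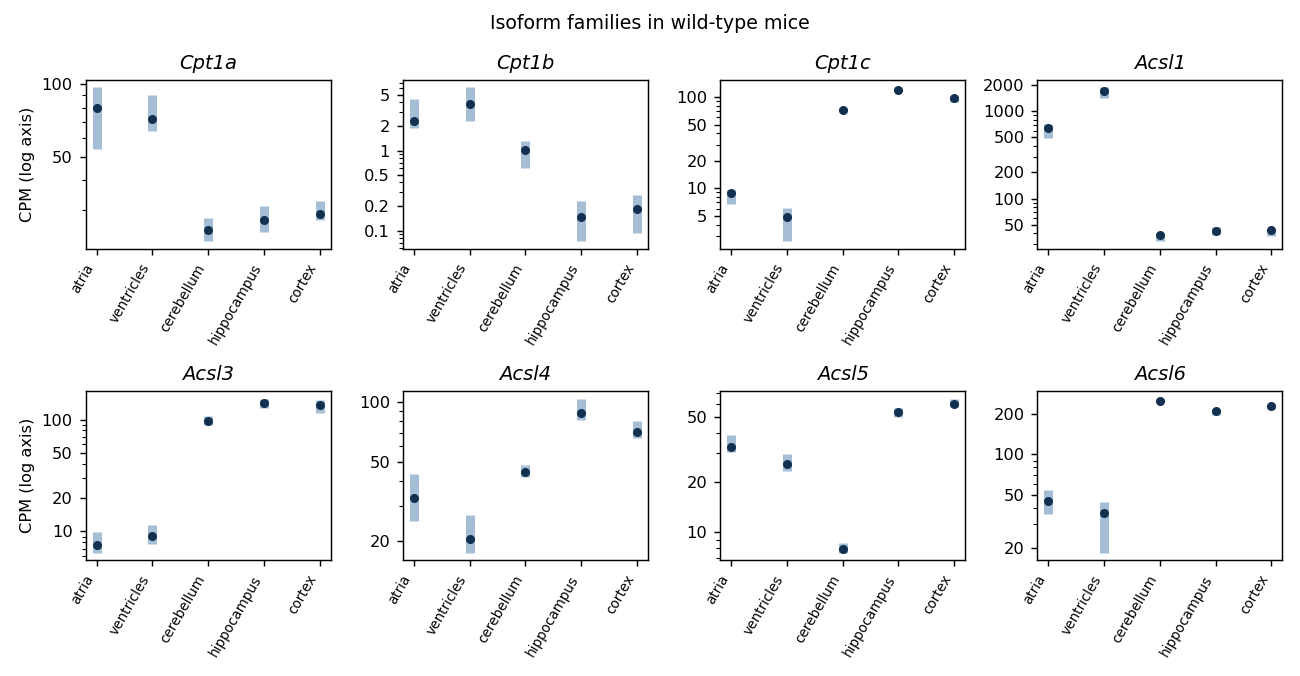
Levels of the Cpt1 and Acsl isoforms in 5 tissues of 6 wild-type mice, in CPM on log axes. Bars run from the lowest to the highest mouse and points are medians. Acsl1 and Cpt1a stand higher in the heart, and Cpt1c, Acsl3 and Acsl6 higher in the brain, with no overlap between heart and brain bars.

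The genes of control were read on the same scale. Ppara was at 18.4, 29.3 and 32.8 CPM in atria, 38.6, 54.9 and 69.4 in ventricles, 1.51, 1.93 and 2.16 in cerebellum, 1.70, 2.07 and 2.30 in hippocampus and 2.09, 2.51 and 3.08 in cortex. Ppargc1a was at 131, 150.4 and 163 in atria, 159.5, 224 and 240.1 in ventricles, 45.3, 48.2 and 53.3 in cerebellum, 39.2, 45.1 and 48.2 in hippocampus and 37.7, 41.6 and 47.1 in cortex. Atria and ventricles did not overlap for Ppara and overlapped at the edge for Ppargc1a, and all heart libraries lay above all brain libraries for both. Pdk4, a kinase that shuts off pyruvate dehydrogenase and so spares glucose, was at 181, 556 and 1301 in atria, 649, 778 and 1627 in ventricles, 5.61, 6.44 and 14.7 in cerebellum, 9.88, 11.9 and 21.5 in hippocampus and 9.58, 12.2 and 19.3 in cortex. Ucp3, a mitochondrial carrier of muscle, was at 2.89, 18.8 and 54.2 in atria, 40.0, 79.3 and 88.4 in ventricles, 0.994, 1.31 and 1.58 in cerebellum, 1.44, 1.72 and 2.64 in hippocampus and 2.02, 2.52 and 3.19 in cortex. Both spread more widely between mice of a heart group than the other members did: the median SD of log2 CPM over the 6 heart groups was 0.793 for Ucp3 and 0.708 for Pdk4, against 0.192 for the middle member.

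In ventricles, nearly every enzyme of beta-oxidation was higher than in atria of the same wild-type mice. By edgeR's quasi-likelihood test (adjusted p below 0.05), 25 of the 35 members were higher and 4 lower, beside 21.8% and 29.8% of the 19477 genes tested. The members' median log2 difference (ventricles minus atria) was 1.26, against -0.071 over all genes. Of the 13 beta-oxidation enzymes 12 were higher, with a median of 1.52, as were all 3 genes of electron transfer, 2 of 3 uptake genes and 5 of 6 control genes. Eci1, an isomerase for unsaturated chains, was at 48.9 to 71.4 CPM in atria and 152 to 232 in ventricles, and Fabp3, at the levels above, differed as much. Their log2 differences were 1.75 ± 0.10 (SE, n = 6, edgeR adjusted p = 1.13e-15) and 1.73 ± 0.13 (edgeR adjusted p = 5.11e-13). Hadhb, the thiolase subunit of the trifunctional protein, had 268 to 399 CPM in atria and 988 to 1105 in ventricles. Slc25a20, the carnitine carrier, had 50.0 to 79.7 and 186 to 249.9, and Hadh, which oxidises short chains, 166 to 259 and 582 to 845. For these 3 the log2 differences were 1.68 ± 0.078, 1.66 ± 0.088 and 1.65 ± 0.091 (edgeR adjusted p at most 4.66e-16), a little over 3-fold each, and no atrial mouse overlapped a ventricular one.

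The members lower in ventricles were all forms of the isoform families. Cpt1c fell by 0.88 ± 0.11 on the log2 scale (edgeR adjusted p = 4.29e-08), Acsl4 by 0.70 ± 0.10 (9.24e-07), Acsl6 by 0.47 ± 0.13 (0.00364) and Acsl5 by 0.40 ± 0.067 (7.04e-06). Acsl1 was the only synthetase called higher in ventricles, by 1.40 ± 0.082 (edgeR adjusted p = 2.70e-15). The 6 members not called were Cpt1a (log2 difference -0.10 ± 0.12), Acaa1a (0.12 ± 0.19), Acsl3 (0.23 ± 0.10), Slc27a1 (0.29 ± 0.15), Pdk4 (0.43 ± 0.33) and Cpt1b (0.46 ± 0.24). With the mouse as a block, which uses that both chambers came from the same animals, Acsl3 passed the threshold as well (edgeR adjusted p = 0.0284, against 0.0516 without the block).

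Markers of cell types moved with this contrast. Of 7 cardiomyocyte markers 2 (Pln and Ryr2) were higher in ventricles, and their sum was 50646 to 57102 CPM in atria and 63211 to 78327 in ventricles. Of 6 red cell markers 5 were lower (2433 to 4612 and 342 to 1743 CPM), and of 9 skeletal muscle markers 5 were lower (24.5 to 58.1 and 3.90 to 5.98). Endothelial markers were divided, 3 higher and 3 lower, at 874 to 1126 and 1054 to 1299 CPM. Of 9 white adipocyte markers tested 3 were higher, Fabp4 among them, and 6 lower, and the list of 10 summed to 179 to 282 CPM in atria and 420.0 to 592 in ventricles. Mitochondrial genes took 14.1% to 34.5% of reads in atria and 26.5% to 44.8% in ventricles over all genotypes. The part of these differences in the members' levels was not tested.

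Between heart and brain, 29 members were higher and 4 lower in the heart (mean of 2 heart tissues against mean of 3 brain regions), beside 40.7% and 50.2% of all genes. All log2 differences of this contrast are read against a shift of -0.22, the median over all genes, and the members' median was 4.08. Cd36 differed most, by 10.07 ± 0.41 on the log2 scale (SE, n = 6, edgeR adjusted p = 5.43e-21), and by 11.11 without the 2 libraries of mouse 8 that held heart RNA. Fabp3 was higher by 6.42 ± 0.092 (85.4-fold, edgeR adjusted p = 2.28e-33) and Pdk4 by 6.12 ± 0.25 (69.8-fold, 3.56e-21). Among the enzymes, Acaa2 (355 to 467 CPM in atria, 13.3 to 16.3 in cortex) and Acadl (609.9 to 913 and 22.8 to 25.8) led, at 5.66 ± 0.078 and 5.49 ± 0.06. All uptake, electron transfer and control genes, 12 of the 13 enzymes and 4 of the 5 shuttle genes were higher in the heart, and Acaa1a was the enzyme not called. Acaa1a, a thiolase of the peroxisome and not of the mitochondrion, had a log2 difference of -0.077 ± 0.12 (edgeR adjusted p = 0.553). Acsl5 had -0.013 ± 0.043 (0.77), the net of low cerebellar and high forebrain levels.

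The 4 members lower in the heart were Cpt1c (-3.94 ± 0.072, 15.3-fold), Acsl3 (-3.90 ± 0.067, 14.9-fold), Acsl6 (-2.63 ± 0.092, 6.18-fold) and Acsl4 (-1.32 ± 0.068, 2.503-fold), with edgeR adjusted p at most 2.88e-18. Within the Cpt1 family Cpt1a was higher in the heart by 1.44 ± 0.074 and Cpt1b by 3.38 ± 0.17, and within the synthetases Acsl1 by 4.60 ± 0.056 (24.3-fold). Ppara was higher by 4.13 ± 0.087 and Ppargc1a by 1.94 ± 0.049, which placed the coactivator among the members that differed least.

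**Figure D2:**
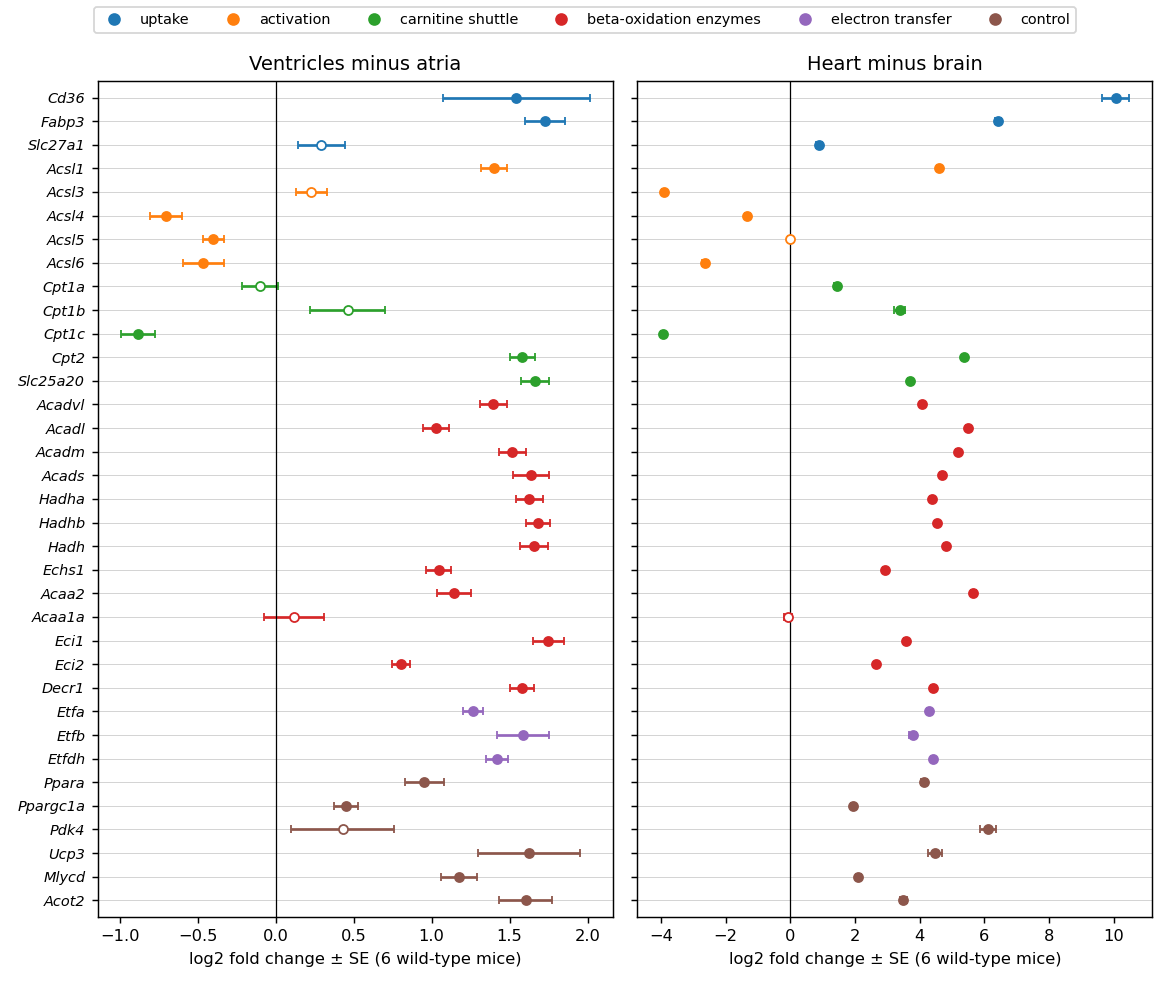
Log2 fold changes of the 35 members in wild-type mice, ventricles minus atria (left) and the mean of the heart tissues minus the mean of the brain regions (right), with SE from edgeR (6 mice). Colours give the role, and open points mark edgeR adjusted p of 0.05 or more. The beta-oxidation enzymes other than Acaa1a lie to the right of 0 in both panels, and Cpt1c, Acsl4 and Acsl6 to the left in both.

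Within the brain, members moved both ways between cerebellum and forebrain. Against the cortex 13 members were higher and 10 lower in the cerebellum, beside 33.8% and 35.3% of all genes, and against the hippocampus 11 were higher and 8 lower, beside 33.5% and 34.8%. Of the 13 beta-oxidation enzymes 7 were higher and 1 lower than in cortex, and 6 were higher and 1 lower than in hippocampus. Acsl5 was lower in the cerebellum by 7.24-fold against the cortex (log2 difference -2.86 ± 0.07, edgeR adjusted p = 1.63e-25) and by 6.53-fold against the hippocampus (-2.71 ± 0.07). Cpt1b went the other way, higher by 2.49 ± 0.29 (5.07e-09) and 2.74 ± 0.30 (1.26e-09), all from values near 1 CPM or less. Etfa (0.70 ± 0.066 and 0.54 ± 0.066), Eci1 (0.60 ± 0.10 and 0.51 ± 0.10), Acadvl (0.59 ± 0.088 and 0.60 ± 0.088) and Cpt2 (0.53 ± 0.086 and 0.56 ± 0.086) were higher in the cerebellum in both contrasts.

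Lower in the cerebellum than in the cortex were also Acaa2 (-0.90 ± 0.11), Fabp3 (-0.78 ± 0.13), Acsl4 (-0.61 ± 0.10), Acsl3 (-0.40 ± 0.083), Cpt1c (-0.35 ± 0.088) and Ucp3 (-0.91 ± 0.38), of which Ucp3 lost the threshold without the libraries of mouse 8 (edgeR adjusted p = 0.0355 with and 0.0535 without them). Cpt1a (-0.18 ± 0.12), Acsl1 (-0.088 ± 0.082) and Acsl6 (0.21 ± 0.13) did not pass. Against the hippocampus, Cd36 (-2.06 ± 0.62), the thioesterase Acot2 (-1.39 ± 0.19), Acsl4 (-0.96 ± 0.10), Acaa2 (-0.78 ± 0.11), Cpt1c (-0.70 ± 0.088) and Acsl3 (-0.50 ± 0.083) were lower in the cerebellum. Acsl6 was higher there by 0.33 ± 0.13, and Acsl1 (-0.12 ± 0.082) and Cpt1a (-0.086 ± 0.12) did not pass. For Cd36 the comparison with the cortex turned on the 2 libraries with heart RNA. Its log2 difference was -0.40 ± 0.68 with them (edgeR adjusted p = 0.616) and -2.31 without them (adjusted p = 2.70e-09), while against the hippocampus it was called with and without them (-2.74 without). Without these libraries Ppara also lost its call against the cortex (edgeR adjusted p = 0.0526), as Fabp3 (0.223) and Ppargc1a (0.0804) did against the hippocampus, where Acadm gained one (0.0135). With the mouse as a block, Echs1 passed against the cortex (edgeR adjusted p = 0.0234, 0.0509 without it) and Pdk4 against the hippocampus (0.0358, 0.0806 without it).

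Hippocampus and cortex differed least. In the hippocampus 8 members were higher and 1 lower than in the cortex, beside 16.8% and 16.7% of all genes. Acot2 (0.80 ± 0.18, edgeR adjusted p = 0.000832), Cpt1c (0.35 ± 0.088, 0.00216), Acsl4 (0.35 ± 0.10, 0.00606) and Etfdh (0.31 ± 0.069, 0.000686) were among the higher ones, and Fabp3 was the lower one (-0.49 ± 0.13, 0.00301). Cd36 was called at 1.66 ± 0.60 (0.0308), but its log2 difference was 0.43 and its adjusted p 0.0734 without the libraries of mouse 8, and 0.0612 with the mouse as a block. Echs1 had an adjusted p of 0.0609 without those libraries and 0.0327 with them, and Ppara passed with the block (0.0384) and not without it (0.0882). The isoforms Cpt1a (-0.093 ± 0.12), Cpt1b (-0.26 ± 0.34), Acsl1 (0.028 ± 0.082), Acsl3 (0.092 ± 0.083), Acsl5 (-0.15 ± 0.064) and Acsl6 (-0.12 ± 0.13) did not pass.

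The 6 knockout mice gave the same tissue contrasts a further time, in animals that share none with the wild-type fit. Between ventricles and atria, 28 members were called with the same sign in both genotypes, of 29 called in wild-type and 29 in knockout mice, where 36.5% of all genes were called with the same sign. Only Acsl6 (wild-type) and Acsl3 (knockout, 0.31 ± 0.11, edgeR adjusted p = 0.0269) were called in one genotype alone. For Acsl6 the difference was -0.037 ± 0.12 in knockout mice. Between heart and brain the same 33 members were called with the same sign (83.9% of all genes), between cerebellum and cortex 16 of 23 and 18 (52.3%), between hippocampus and cortex 5 of 9 and 10 (19.2%), and between cerebellum and hippocampus 15 of 19 and 17 (51.1%). No member was called with opposite signs. In knockout mice the ventricular excess of Fabp3 was 2.12 ± 0.32, the deficit of Cpt1c -0.88 ± 0.089, the excess of Cd36 in heart over brain 10.95 ± 0.15 and the cerebellar deficit of Acsl5 against the cortex -2.90 ± 0.11. Cd36 in the knockout hippocampus differed from the cortex by 0.32 ± 0.19 (edgeR adjusted p = 0.207), which was not called. Of the 10 members called there, Etfb rested on cortex mouse 14: its log2 difference was -1.29 ± 0.47 with and -0.17 without the libraries of mice 12 and 14 that stood apart, and its adjusted p was 0.0438, 0.617 without them and 0.111 with the mouse as a block. The cortex library of mouse 3, which also stood apart, was kept in these fits. The block also ended the calls of Acsl5 (0.0531) and Acads (0.0737) there, and that of Acads between cerebellum and cortex (0.0692).

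Hadha and Hadhb, whose promoter windows overlap, kept their ratio within a narrow range in most libraries. The log2 ratio of Hadha to Hadhb per kb was -0.053 to 0.34 in wild-type atria (median 0.22), -0.19 to 0.37 in ventricles (0.10), 0.18 to 0.35 in cerebellum (0.23), 0.12 to 0.41 in hippocampus (0.26) and 0.21 to 0.57 in cortex (0.53), while Hadha was 20.8-fold and Hadhb 23.4-fold higher in heart than in brain. The heterozygous and knockout medians lay between 0.083 and 0.25. The lowest ratios of all, -1.20 in knockout cortex and -0.69 in knockout cerebellum, came from mice 14 and 12, whose libraries stood apart. The transcripts measure 4017 (Hadha) and 2048 (Hadhb) bases, and the part of the shift toward short genes in these ratios was not tested.

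No member was called in any of the 7 comparisons of a mutant genotype with wild-type mice. By edgeR's quasi-likelihood test 0 of 35 had an adjusted p below 0.05, and DESeq2's Wald test called 0 too. In each comparison the mutant and wild-type mice overlapped for every member. The share of all genes that overlapped is not given here, so this is not read as a trait of the members. Over all genes, edgeR called 0.253% in knockout atria, 0.188% in knockout ventricles, 0.0124% in heterozygous atria, 0.0202% in heterozygous ventricles, 0.0817% in knockout cerebellum, 0.165% in knockout hippocampus and 0.0557% in knockout cortex. DESeq2 called 0.68%, 0.424%, 0.0433%, 0.0202%, 0.286%, 0.591% and 0.139% in the same order. The counts below are of members at an unadjusted p below 0.05, and each is set beside the share of all genes at that level.

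In knockout atria 7 of 35 members had an unadjusted p below 0.05, all with lower means, where 8.15% of all genes did. They were Acsl6, Acadm, Acaa1a, Slc25a20, Fabp3, Etfdh and Hadha. The members' median log2 fold change was -0.15, against 0.00014 over all genes, and 27 of 35 lay below 0. Single libraries moved the count: it was 15 without knockout mouse 5, 11 without wild-type mouse 15 and 4 without knockout mouse 10, all with lower means. Acsl6 had lowest, median and highest levels of 29.7, 35.6 and 37.5 CPM in knockout and 35.6, 44.5 and 54.3 in wild-type atria. Its highest knockout mice reached into the lower wild-type mice. The fold change was -0.35 ± 0.11 (log2, SE, n = 6, edgeR unadjusted p = 0.00425, adjusted p = 0.319, range over the alternatives 0.155 to 0.529, two-sided exact permutation p = 0.0195). Acadm was at 442, 495 and 639 CPM in knockout and 510.3, 613 and 748 in wild-type atria, -0.30 ± 0.10 on the log2 scale (unadjusted p = 0.00828, edgeR adjusted p = 0.385). Knockout mouse 5 had the highest level of its group for 23 of the 35 members. Markers were not called in any list. The 7 cardiomyocyte markers had a median log2 fold change of -0.15, and their sum was 43989 to 57135 CPM in knockout and 50646 to 57102 in wild-type atria. Red cell markers (median 0.55) summed to 1595 to 11792 and 2433 to 4612 CPM, and white adipocyte markers (median 1.5) to 197 to 705, with mouse 12 highest, and 179 to 282. The 5 ventricular muscle markers summed to 122 to 450 CPM in knockout and 81.0 to 1352 in wild-type atria, with wild-type mouse 16 highest. In wild-type ventricles they summed to 14155 to 15139 CPM. Whether these bear on the members' lower means was not tested.

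In knockout ventricles 0 of 35 members had an unadjusted p below 0.05 by edgeR, where 4.78% of all genes did. Those of smallest p were Slc25a20 (164, 186 and 213 CPM in knockout, 186, 226 and 249.9 in wild-type ventricles) and Cd36 (1978, 2109.9 and 2305 and 2065, 2341 and 2832). Their fold changes were -0.23 ± 0.11 and -0.18 ± 0.09 on the log2 scale, with unadjusted p = 0.0526 and 0.0583 by edgeR. The upper knockout mice lay within the wild-type range for both. With 1 library left out the count was 3 (without knockout mouse 5), 2 (knockout mouse 14), 1 (knockout mouse 12 or wild-type mouse 15, 16 or 17) or 0. A test of whether the knockout effect differed between atria and ventricles (edgeR interaction) called 0 members and 0.00622% of all genes. At an unadjusted p below 0.05 that test had 1 member, Acsl6 (difference of log2 fold changes 0.42 ± 0.14, edgeR unadjusted p = 0.00895, adjusted p = 0.920). Its knockout fold change was 0.027 ± 0.15 in ventricles.

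In heterozygous atria 3 of 35 members had an unadjusted p below 0.05, all with lower means, where 7.22% of all genes did. Ppargc1a was at 97.1, 124 and 162 CPM in heterozygous and 131, 150.4 and 163 in wild-type atria (-0.26 ± 0.10, edgeR adjusted p = 0.636). Ppara was at 17.3, 21.9 and 25.6 and 18.4, 29.3 and 32.8 (-0.33 ± 0.13, 0.642), and Fabp3 at 503, 667 and 818 and 541, 917 and 1009.5 (-0.35 ± 0.15, 0.655). The ranges overlapped for all 3. The 5 ventricular muscle markers summed to 48.2 to 695 CPM in heterozygous and 81.0 to 1352 in wild-type atria. Their part in the lower means was not tested. The count was 0 without heterozygous mouse 11, 1 without heterozygous mouse 13 or wild-type mouse 16, and 5 without wild-type mouse 15. In heterozygous ventricles 1 of 35 did, where 4.84% of all genes did. This was Cpt1b, at 1.77, 2.36 and 4.09 CPM against 2.36, 3.87 and 6.16 (-0.60 ± 0.27, edgeR adjusted p = 0.961), on its few countable bases. Fabp3 (0.32 ± 0.18) and Acadl (0.18 ± 0.10) came next, and mouse 4, whose library stood apart, was the highest heterozygous mouse for both. Without it 0 of 35 members had an unadjusted p below 0.05, where 6.85% of all genes did, and the count was also 0 without heterozygous mouse 13 or wild-type mouse 8 or 18, 3 without heterozygous mouse 2 and 2 without wild-type mouse 17. Without mouse 4 Fabp3 had 0.079 ± 0.12 and Acadl had 0.11 ± 0.092.

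In knockout cerebellum 3 of 35 members had an unadjusted p below 0.05, where 5.85% of all genes did. Pdk4 was at 4.49, 5.51 and 6.35 CPM in knockout and 5.61, 6.44 and 14.7 in wild-type cerebellum, -0.52 ± 0.23 on the log2 scale (edgeR adjusted p = 0.583, exact permutation p = 0.0368). Wild-type mouse 7 was the highest by a wide margin, and the other wild-type mice had 5.61 to 7.58 CPM. Cd36 was at 0.0960, 0.148 and 0.284 CPM against 0.0781, 0.220 and 3.34, with a log2 fold change of -2.02 ± 0.88, and of -0.088 ± 0.38 without the wild-type library of mouse 8 that held heart RNA. Etfb was at 0.674, 0.806 and 3.07 CPM against 0.506, 0.720 and 0.791, with 0.82 ± 0.37, and 0.28 ± 0.18 without the knockout library of mouse 12. Without mouse 8, 1 member had an unadjusted p below 0.05 (Pdk4), where 4.6% of all genes did. Without mouse 12 there were 6 (Acaa1a, Cpt1c, Pdk4, Slc25a20, Acsl3 and Cd36), where 11.7% of all genes did, and the members' median moved from 0.044 to -0.027. In both cases edgeR called 0 members. The count was 0 without knockout mouse 10, and 1 without knockout mouse 1 or 3 or wild-type mouse 16.

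In knockout hippocampus 3 of 34 members tested had an unadjusted p below 0.05, where 7.7% of all genes did, and 3 also did without mouse 8 (7.95% of all genes). The count was 10 without wild-type mouse 16 and 6 without wild-type mouse 18, all with lower means. Pdk4 was at 9.05, 9.48 and 11.2 CPM in knockout and 9.88, 11.9 and 21.5 in wild-type hippocampus (-0.44 ± 0.16, edgeR adjusted p = 0.544, exact permutation p = 0.0173). Wild-type mouse 7 was again the highest, and the other wild-type mice had 9.88 to 13.2 CPM. Eci1 was at 6.65, 7.02 and 7.43 and 7.21, 7.49 and 8.65 (-0.14 ± 0.061, 0.612), and its ranges overlapped at the edge. Acaa1a, the other of the 3, is described across tissues below. In knockout cortex 2 of 34 had an unadjusted p below 0.05, where 7.39% of all genes did. These were Echs1, a hydratase, at 28.5, 32.2 and 61.1 CPM against 27.8, 29.4 and 30.3 (0.43 ± 0.19, edgeR adjusted p = 0.474) and Etfa at 17.6, 18.6 and 31.7 against 16.8, 17.6 and 18.6 (0.38 ± 0.17, 0.474). Hadhb (0.29 ± 0.13) came next. For all 3 the highest knockout mouse was mouse 14, whose library stood apart, and without it their fold changes were 0.21 ± 0.10, 0.22 ± 0.12 and 0.15 ± 0.082. Mouse 3, whose library also stood apart, was kept in that fit, and no fit left out both. Without mouse 3 and with mouse 14, Echs1, Etfa and Hadhb had 0.39 ± 0.20, 0.29 ± 0.17 and 0.28 ± 0.14. Etfa was at 31.7 and 29.9 CPM in mice 14 and 3 and at 17.6 to 18.9 in the other knockout mice. Without mouse 14, 1 of 34 members was left at that level (Acaa1a, 4.74% of all genes), and without mouse 3 also 1 (Slc25a20, 3.3%). Without another knockout library the count rose to 10 (mouse 10), 8 (mouse 12), 7 (mouse 5) or 5 (mouse 1), all with higher means, and it was 1 without wild-type mouse 7 and 0 without wild-type mouse 8, 15, 16 or 17. The edgeR interaction test among the 3 brain regions called 0 members and 0.0155% of all genes, and 0 members had an unadjusted p below 0.05 in it.

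**Figure D3:**
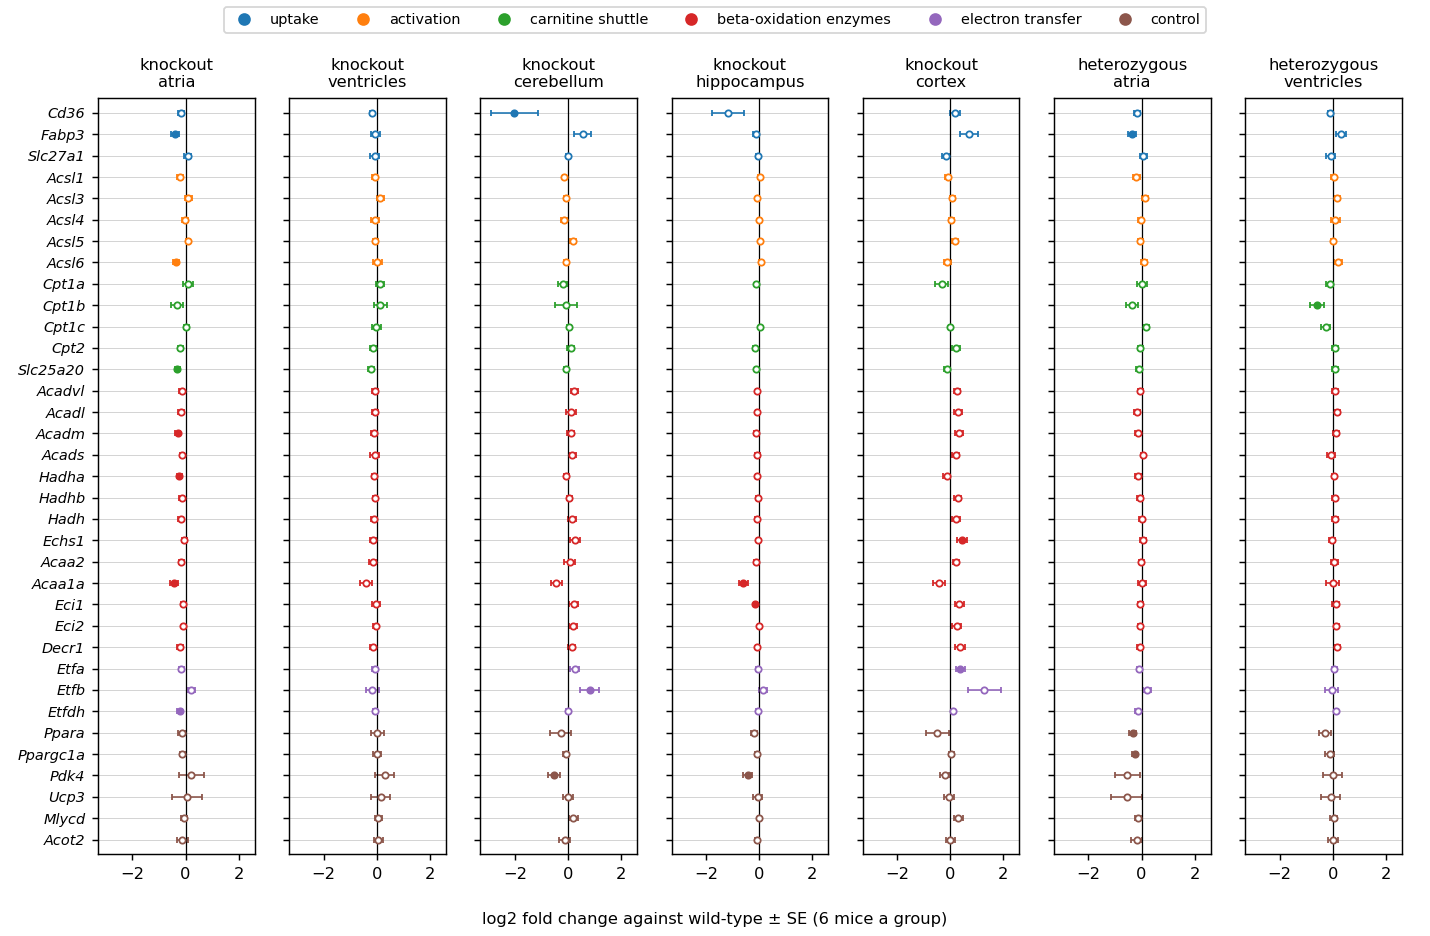
Log2 fold changes of the members against wild-type mice of the same tissue, with SE from edgeR, for 5 knockout and 2 heterozygous comparisons of 6 mice a group. Filled points mark an unadjusted p below 0.05, and colours give the role as in the plot of tissue contrasts (blue for uptake, orange for activation, green for the shuttle, red for beta-oxidation, purple for electron transfer, brown for control). Most points lie within 0.5 of 0, and those farthest from it are Cd36 in cerebellum (-2.02 ± 0.88) and Etfb in cortex (1.28 ± 0.62). Without the library that stood apart they were -0.088 ± 0.38 (without mouse 8) and 0.068 ± 0.23 (without mouse 14).

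Acaa1a, Hadha and Slc25a20 had lower knockout than wild-type means in all 5 tissues, and Acaa1a differed most of the 3 in each. For Hadha in cerebellum this rested on the library of mouse 12 that stood apart. Without it the log2 fold change of Hadha there was 0.0097 ± 0.043. In cortex, Hadha had -0.026 ± 0.062 without the library of mouse 14 and -0.13 ± 0.15 without that of mouse 3, which both stood apart. The knockout fold changes of Acaa1a were -0.42 ± 0.16 in atria, -0.40 ± 0.23 in ventricles, -0.43 ± 0.21 in cerebellum, -0.60 ± 0.17 in hippocampus and -0.43 ± 0.24 in cortex (log2, SE, n = 6). The edgeR unadjusted p were 0.0131, 0.101, 0.0592, 0.0035 and 0.0908, and the adjusted p were 0.371 or more in all 5. These 5 values come from the same 12 mice and are not independent. In heterozygous mice the fold change was 0.029 ± 0.15 in atria and -0.0049 ± 0.23 in ventricles. Without the libraries of mice 12 and 14 that stood apart, it was -0.58 ± 0.17 in cerebellum (edgeR unadjusted p = 0.0049) and -0.62 ± 0.20 in cortex (0.00725). Without cortex mouse 3, which also stood apart, it was -0.47 ± 0.26 (0.0977), and no adjusted p passed.

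In each genotype the same 2 mice were the lowest for Acaa1a in all 3 brain regions. Over the 3 brain regions, wild-type mice 7 and 15 had 35.1 to 37.6 and 35.2 to 40.9 CPM, and wild-type mice 8, 16, 17 and 18 had 52.5 to 58.1, 52.9 to 57.6, 57.1 to 66.9 and 56.8 to 64.9. Knockout mice 5 and 10 had 22.0 to 23.1 and 22.5 to 26.3, and knockout mice 1, 3, 12 and 14 had 37.2 to 40.1, 37.9 to 44.3, 37.0 to 54.2 and 36.9 to 58.3. The highest values of mice 12 and 14 came from their libraries that stood apart. Within each genotype the 2 lowest mice lay below the other 4 in each brain region, and the upper knockout mice overlapped the lower wild-type mice. Acaa1b, the near copy, was far lower and ran the other way among wild-type mice: it was at 0.575 to 1.03 and 0.649 to 0.835 CPM in mice 7 and 15 and between 0.0150 and 0.495 in the other 4. In knockout mice it was between 0.353 and 2.27 CPM. Whether reads were exchanged between the copies was not tested. In the heart this division of the mice by Acaa1a held less in wild-type mice. Wild-type mouse 16 had 35.4 CPM in atria and 60.9 in ventricles, and wild-type mouse 17 had 55.1 and 38.1. Knockout mice 5 and 10 stayed the lowest of their genotype, at 25.2 and 30.9 CPM in atria and 28.5 and 29.4 in ventricles. The other knockout mice had 35.2 to 40.9 CPM in atria and 37.4 to 55.8 in ventricles.

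**Figure D4:**
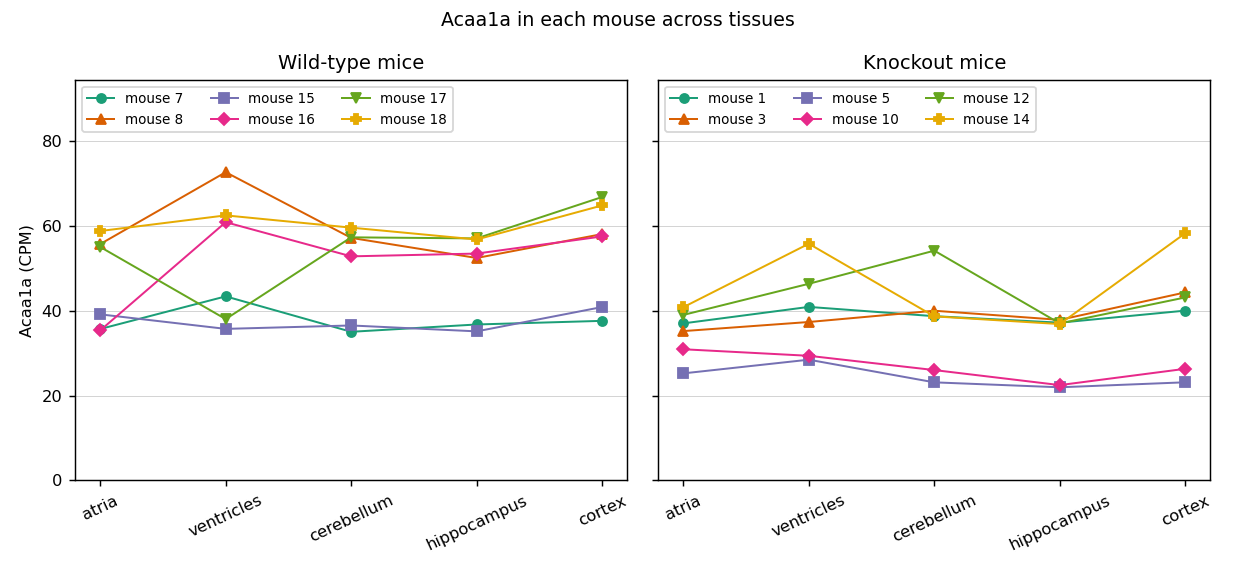
Acaa1a in CPM in 5 tissues of each wild-type mouse (left) and each knockout mouse (right), with a line per mouse. Wild-type mice 7 and 15 and knockout mice 5 and 10 stay lowest of their genotype in the 3 brain regions.

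Acaa1a lies on chromosome 9, as Gnb5 does, at chr9:119339676-119350299 (plus strand, GRCm38), 44.0 Mb from it. Etfa (19.8 Mb from Gnb5) and Slc25a20 (33.3 Mb) are the other members on that chromosome. Etfa had knockout fold changes of -0.15 ± 0.091, -0.083 ± 0.089, 0.25 ± 0.18, -0.059 ± 0.043 and 0.38 ± 0.17 in atria, ventricles, cerebellum, hippocampus and cortex, and Slc25a20 had -0.30 ± 0.11, -0.23 ± 0.11, -0.072 ± 0.084, -0.11 ± 0.057 and -0.14 ± 0.082. The higher values of Etfa came with libraries that stood apart: it was 0.0084 ± 0.045 in cerebellum without mouse 12, and 0.22 ± 0.12 and 0.29 ± 0.17 in cortex without mouse 14 or mouse 3. Each of these cortex fits kept the library of the other mouse. None of these values of Etfa and Slc25a20 passed the adjusted threshold.

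In atria, with the 3 genotypes pooled, mice above their genotype's mean in Pdk4 tended to be above it in Ucp3 and Cpt1a. Pdk4, Ucp3, Acot2 (a thioesterase of the mitochondrion) and Cpt1a were compared over the 18 mice, as deviations from the mean log2 CPM of their genotype, in 16 relations with permutation tests. In atria Pdk4 and Ucp3 had Pearson's r = 0.931 (permutation p = 1.00e-05, adjusted 0.00016) and Spearman's rho = 0.909 (permutation p = 3.00e-05, adjusted 0.00048), and r = 0.899 without the 2 mice farthest from the median of Pdk4. The unadjusted p of this r is the smallest these permutations can give. Over the 18 atria Pdk4 ranged from 181 to 1594 CPM and Ucp3 from 2.89 to 56.4, with wild-type and knockout mice toward both ends. Heterozygous atria ran from 251 to 596 CPM of Pdk4 and 6.84 to 20.3 of Ucp3, with mouse 9 lowest for both. No relation was computed within a single genotype. For Pdk4 and Cpt1a in atria, Pearson's r = 0.916 (permutation p = 4.00e-05, adjusted 0.00032) and Spearman's rho = 0.907 (permutation p = 8.00e-05, adjusted 0.00064), and r = 0.893 without 2 mice. The other 4 pairs in atria had r of 0.817 (Ucp3 and Cpt1a), 0.767 (Pdk4 and Acot2), 0.687 (Ucp3 and Acot2) and 0.680 (Acot2 and Cpt1a), with adjusted permutation p of 0.00658 or less, and of 0.572 to 0.766 without 2 mice.

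In ventricles the relations were looser and rested more on single mice. Pdk4 and Ucp3 had Pearson's r = 0.759 (permutation p = 0.00328, adjusted 0.00658) and Spearman's rho = 0.600 (permutation p = 0.0149, adjusted 0.0265), but r = 0.526 without mice 2 and 5. Knockout mouse 5 had 2995 CPM of Pdk4, 225 of Ucp3 and 119 of Cpt1a in ventricles, the highest of all 18 mice for each. For Ucp3 and Cpt1a r was 0.721 (adjusted permutation p = 0.00697) and 0.460 without mice 5 and 14. For Pdk4 and Cpt1a r was 0.587 (adjusted permutation p = 0.0539) and Spearman's rho 0.536 (adjusted permutation p = 0.0484), and r was 0.283 without mice 2 and 5. The pairs with Acot2 had r of 0.00997 to 0.348 and did not pass. Without mouse 4 alone, whose ventricle library stood apart, r was 0.771, 0.818 and 0.766 for the 3 pairs of Pdk4, Ucp3 and Cpt1a. Between the chambers of the same mouse, Ucp3 had Pearson's r = 0.752 (permutation p = 0.0006, adjusted 0.00192) and Spearman's rho = 0.649 (permutation p = 0.00831, adjusted 0.0166), and r = 0.716 without 2 mice. For Pdk4 r was 0.618 (adjusted permutation p = 0.0152) with rho = 0.447 (0.112), and for Cpt1a and Acot2 r was 0.379 and 0.153, which did not pass. Without mouse 4, r for Cpt1a between the chambers was 0.619, and r for Acot2 and Cpt1a in ventricles was 0.426, against 0.190 with it.

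**Figure D5:**
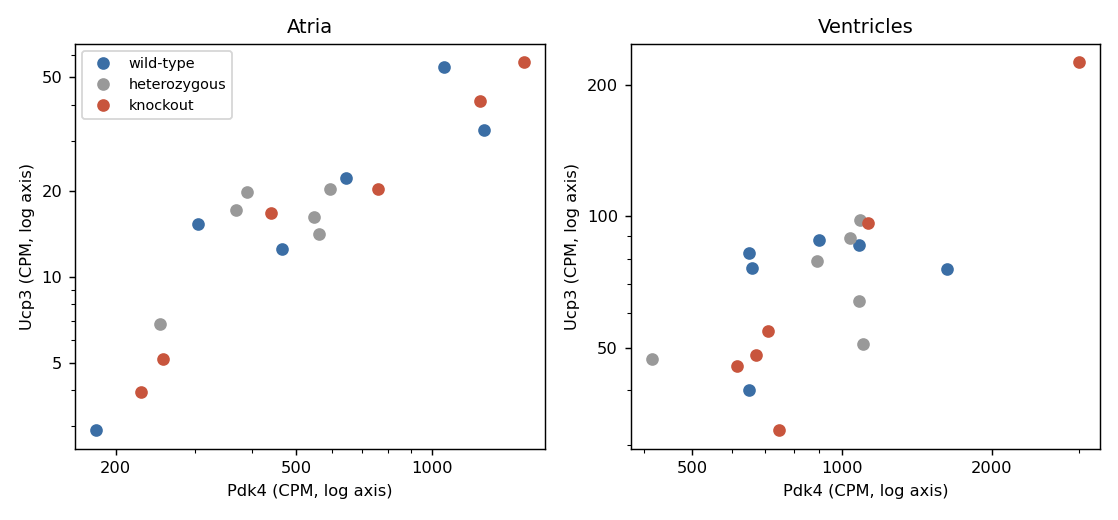
Pdk4 against Ucp3 in CPM on log axes in atria (left) and ventricles (right), a point per mouse, coloured by genotype (6 mice each). In atria the wild-type and knockout points rise together over a wide range and the heterozygous mice lie in a narrow one, and in ventricles knockout mouse 5, at 2995 CPM of Pdk4, lies far above the rest.

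Of 64 other genes of fatty acid metabolism (droplets and lipolysis, peroxisomal oxidation, ketone bodies, nuclear receptors, glucose switching and further dehydrogenases) 63 were tested in the tissue contrasts. In ventricles 44 were higher and 8 lower than in atria, beside 21.8% and 29.8% of all genes, with all 5 ketone body genes among the higher. In the heart 51 were higher and 10 lower than in the brain, beside 40.7% and 50.2% of all genes. By smallest p, Pdk3, a kinase of the same family as Pdk4, was lower in ventricles (-3.80 ± 0.11), and Oxct1, which starts ketone use (1.54 ± 0.058), and Hsd17b10, a dehydrogenase (1.25 ± 0.067) were higher, with edgeR adjusted p at most 3.55e-16. Between heart and brain the thiolase Acat1 (3.31 ± 0.038), the dehydrogenase Acad11 (3.09 ± 0.044) and the thioesterase Acot13 (2.98 ± 0.043) were higher in the heart. Against the cortex 25 were higher and 19 lower in the cerebellum, beside 33.8% and 35.3% of all genes. Among them were the nuclear receptor Esrrg (1.96 ± 0.064), Pdk1 (-1.67 ± 0.061) and Dgat2, which makes triglyceride (-2.20 ± 0.16). The hippocampus had 11 higher and 8 lower than the cortex, beside 16.8% and 16.7% of all genes, with Pparg at -1.49 ± 0.12. The cerebellum had 26 higher and 19 lower than the hippocampus, beside 33.5% and 34.8% of all genes, with Esrrg at 2.46 ± 0.066 and Dgat2 at -2.75 ± 0.16. None of the 64 was called in any of the 7 genotype comparisons by edgeR.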

How the data were processed

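RNA of 5 tissues from 18 mice was sequenced from stranded total RNA libraries. The authors deposited counts, the whole number of reads per Ensembl gene in each library. Per the labels and the submitters' processing notes these were made with cutadapt (version 1.8), STAR (2.5.3a) and HTSeq (0.9.1), and the strand setting of the counting is not given in the sources used here. Counts took part as deposited. Symbols were matched for 53620 gene identifiers and not for 95.

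Genes passing filterByExpr (minimum count 10) were TMM-normalised and tested with edgeR's quasi-likelihood test (4.0.16, R 4.3.3) with Benjamini-Hochberg adjustment over all genes tested. The heart groups were fitted by tissue over 3 genotypes, the brain groups by region over 2, and the tissue contrasts over all tissues of a genotype. The SE of a log2 difference was taken from its size and the root of the F statistic. DESeq2 (1.42.0), RLE normalisation, no filter, robust estimation, a replicate block, a fit of only the 2 genotypes compared, and leaving out each library in turn were alternatives. Exact permutation tests used all 924 divisions of 12 mice (smallest p 0.00216). Near copies were searched with BLAST+ (2.17.0). Scripts were tested on simulated counts.

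The members and lists were chosen with earlier results of these data known. The genes named were the isoform families and fuel control genes, up to 3 members of smallest p per genotype comparison, the 5 called members of largest difference in each direction per tissue contrast, members on chromosome 9, and up to 3 other pathway genes per contrast. In the tissue contrasts the replicate number is the mouse: 39 of 48 pairs of libraries had their highest correlation of deviations with the same mouse (r from -0.75 to 0.78). In the genotype comparisons it joins different mice. Depth was 29204390 to 48807435 reads on genes (median 38864900). Each library of a group came from another mouse, so errors within a tissue cover the spread between mice.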

Additional observations from a re-analysis of the deposited data

Results flagged for a closer look

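In 420 groups of 6 mice, 1 per member and group, 70 (16.7%) held a mouse whose gap to the nearest other mouse, as a share of the group's range, exceeded Dixon's critical value, where chance gives about 1 group in 20. The gap and the range were taken on log2 CPM, and the values printed below are CPM. The members share libraries, so the count is not of independent events. The library that held most was the knockout cerebellum of mouse 12, with 23, which stood apart in short against long genes. It was the highest of its group for Fabp3 (48.5), Acsl5 (11.98), Cpt2 (8.99), Slc25a20 (10.7), Acadl (49.6), Acadm (51.8), Hadhb (35.4), Hadh (25.7), Echs1 (66.4), Acaa2 (13.8), Eci1 (20.9), Eci2 (34.3), Decr1 (31.9), Etfa (56.8), Etfb (3.07) and Mlycd (24.7) and the lowest for Acsl4 (26.6), Acsl6 (184), Cpt1a (11.2), Cpt1b (0.0717), Cpt1c (60.9), Hadha (43.1) and Ppara (0.143). The heterozygous ventricles of mouse 4, which stood apart in the same manner, held 13 and was the highest of its group for Fabp3 (6668), Acadvl (1995), Acadm (2849.8), Acads (402), Hadh (1155), Echs1 (489.5), Acaa2 (1319), Eci1 (326), Eci2 (261), Etfb (39.9) and Mlycd (156) and the lowest for Ppara (11.7) and Ppargc1a (93.9). The knockout cortex of mouse 14, also of this kind, held 5 and was the highest of its group for Etfb (9.36) and the lowest for Slc27a1 (40.7), Acsl6 (116), Cpt1a (7.09) and Hadha (27.1). Whether the shift toward short genes accounts for these values was not tested.

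The 2 brain libraries of wild-type mouse 8 that held heart RNA were the highest of their groups for members that are abundant in heart, the cerebellum for Cd36 (3.34) and the hippocampus for Cd36 (11.8) and Fabp3 (25.7). In wild-type atria, mouse 17 was the lowest for Hadh (166). In heterozygous atria, mouse 9 was the highest of its group for Acsl6 (60.3) and the lowest for Ucp3 (6.84), and mouse 11 was the lowest for Slc25a20 (49.0), Acadvl (409), Acadm (464) and Eci2 (86.2). In knockout atria, mouse 5 was the highest of its group for Etfdh (369.6) and the lowest for Acsl3 (5.73) and Acsl5 (30.6), and mouse 10 was the lowest for Acsl6 (29.7) and Ppargc1a (117), and mouse 12 was the lowest for Hadhb (236). In wild-type ventricles, mouse 8 was the highest of its group for Etfa (788) and the lowest for Ucp3 (40.0), and mouse 17 was the lowest for Cpt1c (2.64). In heterozygous ventricles, mouse 2 was the lowest for Pdk4 (415). In knockout ventricles, mouse 5 was the highest of its group for Cpt1a (119) and Acadl (1950.4), and mouse 14 was the highest of its group for Etfa (730.5). In wild-type cerebellum, mouse 7 was the highest of its group for Pdk4 (14.7), and mouse 17 was the highest of its group for Slc27a1 (91.7). In wild-type hippocampus, mouse 7 was the highest of its group for Pdk4 (21.5). In knockout hippocampus, mouse 5 was the lowest for Ppargc1a (34.3), and mouse 12 was the lowest for Slc27a1 (74.3). In wild-type cortex, mouse 18 was the highest of its group for Etfdh (24.6).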

How the results depend on the processing

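In 7 genotype comparisons, 0 members were called under every alternative run, among them DESeq2, RLE normalisation, no filter on low counts, robust estimation, a fit of only the 2 genotypes compared and the replicate block, in which the replicate numbers joined different mice (3 of 42 libraries correlated best with their own number, r from -0.30 to 0.16). Of 192 counts of called members recomputed, 191 stayed within 1.5 times, and the exception was hippocampus against cortex in knockout mice, where 6 members were called with no filter on low counts and 10 with it. The blocked counts of the tissue contrasts moved by at most 3. Of 1591 single values, 1546 kept their direction and side of the threshold, 16 lost and 8 gained significance, 16 changed sign and 5 levels moved by more than 1 SD with RLE. The sign changes all concerned values near 0 that passed no threshold. With 1 library left out, the log2 fold change of Acaa1a ranged from -0.083 to 0.11 in heterozygous atria and from -0.23 to 0.11 in heterozygous ventricles, that of Etfa from -0.0039 to 0.12 and that of Slc25a20 from -0.016 to 0.15 in heterozygous ventricles, both lowest without mouse 4. Without the knockout libraries of mice 12 and 14 that stood apart (chosen after seeing the data), Acsl5 was at 0.0023 between heart and brain, and Cpt1a at -0.067 and Acsl6 at -0.078 between hippocampus and cortex. Cortex mouse 3, which also stood apart, was kept in that fit. The cause was not tested for any of these. Acsl3 between wild-type ventricles and atria passed with DESeq2, RLE and the block, and Acsl6 between wild-type cerebellum and hippocampus failed with DESeq2 and RLE (adjusted p 0.0504 and 0.0537). Depth limits Cd36 in brain, Cpt1b and Etfb, which had the fewest counts.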

Other observations

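Wild-type mouse 7, which had the highest Pdk4 in cerebellum, hippocampus and cortex of its genotype (14.7, 21.5 and 19.3 CPM), had 466 in atria and 1084 in ventricles. Over the 6 brain groups the members with the widest spread between mice were Cd36 (median SD of log2 CPM 0.490), Cpt1b (0.454) and Acaa1a (0.367).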
